A study of Mus musculus with 3 samples.

Results

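High endothelial cells (HEC) of mouse Peyer's patches (PP) were picked out of 3 single-cell RNA libraries by their own transcript counts, and the rule found 842 HEC among 7048 blood endothelial cells (BEC) and 11466 cells kept of 12480 barcodes. A barcode was kept with at least 500 genes, at least 1000 unique molecular identifiers (UMIs, tags that count each captured transcript once) and at most 10% of UMIs from mitochondrial genes. It was called a BEC when Pecam1, Cdh5, Egfl7, Emcn and Flt1 together had at least 3 UMIs, when Col1a1, Col1a2, Dcn, Pdgfra and Lum together had fewer than those, and when the lymphatic genes Mmrn1, Reln and Prox1 together had at most 1. A BEC was called a HEC when Chst4, Gcnt1, Chst2 and Enpp2 together had at least 4 UMIs and more than the venule genes Selp, Adgrg6, Cytl1 and Fxyd6 together. HEC were thus selected on measured values, and every difference between them and the remaining BEC is given as a description.

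The control library came from mice labelled WT on strain C57BL/6, and the study names both littermates without Cre and WT mice as controls, so that the labels do not settle whether these mice were littermates without Cre. Both EC-iCOUP_OE libraries, replicates 1 and 2, came from CDH5(PAC)CreERT2;COUP-TFIIOE/OE mice, in which Cre driven by the Cdh5 promoter of endothelium and switched on by tamoxifen opens a COUP-TFII transgene behind a stop cassette. All mice were labelled as 6 to 10 weeks old, and EC were sorted from PP after tamoxifen. The promoter is shared by all endothelium, so lymphatic EC can carry the transgene too, and reads of the transgene and of Nr2f2, the mouse gene of COUP-TFII, cannot be told apart in these counts. Neither the labels nor the methods give the number of mice or the day for each library. The control library held 6080 barcodes and 17341398 UMIs, replicate 1 held 4959 and 17417260, and replicate 2 held 1441 and 3548983.

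HEC line the high endothelial venules, the vessels through which lymphocytes leave the blood and enter lymphoid tissue. They coat themselves with addressins, which are ligands that lymphocytes bind while they roll and stop. In PP the main addressin is MAdCAM-1, the protein of Madcam1, which binds the integrin α4β7, together with sulfated and fucosylated sugars on mucin-like proteins that bind L-selectin. The rule genes Chst2, Chst4 and Gcnt1 encode enzymes that build such sugars, and Enpp2 encodes autotaxin, a secreted enzyme that makes lysophosphatidic acid. COUP-TFII is a nuclear receptor known for its role in venous identity, and the question put to these libraries was what its forced expression in endothelium did to HEC.

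The rule found 535 HEC among 2469 BEC in the control library, 299 among 3613 in EC-iCOUP_OE replicate 1 and 8 among 966 in replicate 2. Summed over cells, HEC held 3740955, 2195616 and 37363 UMIs, so that a single UMI stood for 0.267, 0.455 and 26.8 CPM (UMIs of a gene scaled to 1000000 UMIs of the same cells) in the control library, replicate 1 and replicate 2. HEC were deep cells, with a median of 6977 UMIs in the control library against 1888.5 in other BEC, and of 6468 against 3056.5 in replicate 1. After each cell was thinned to 2000 UMIs the rule found 235 HEC of 1338 BEC in the control library, 93 of 2841 in replicate 1 and 5 of 617 in replicate 2. No difference in abundance is drawn from these numbers, because a rule gene differed between the libraries (Enpp2 stood at 1627 CPM in control HEC and 1283 CPM in replicate 1 HEC), and because fewer HEC and less RNA of the rule genes per HEC cannot be told apart.

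The HEC score rested on Enpp2, which gave 91.1% of the score UMIs in control HEC and 88.6% in replicate 1. Chst4, an enzyme of 6-sulfation, had 5 UMIs in control HEC, 11 in replicate 1 and 0 in replicate 2, so that 533 of 535 and 294 of 299 HEC had none. The label was checked on genes that the rule did not use. Fut7, the fucosyltransferase of L-selectin ligands, stood at 325 CPM (exact Poisson interval 307 to 344) in control HEC and 15.1 CPM in other control BEC, and at 307 CPM (284 to 331) against 17.0 CPM in replicate 1. Madcam1 stood at 11232 CPM against 2100 CPM in the control library and at 7862 CPM against 2610 CPM in replicate 1. Ccl21a, a chemokine that arrests lymphocytes through CCR7, stood at 6932 CPM against 732 CPM and at 8936 CPM against 1102 CPM. Fut7, Madcam1 and Ccl21a were thus higher in HEC than in other BEC of both libraries, whereas Chst4 was nearly absent. These and all later intervals cover counting error at 95% and not the spread between mice. Those of levels and ratios leave out the spread between cells as well. No test between genotypes was run, since there was 1 control library and replicate 2 held 8 HEC.

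**Figure D1:**
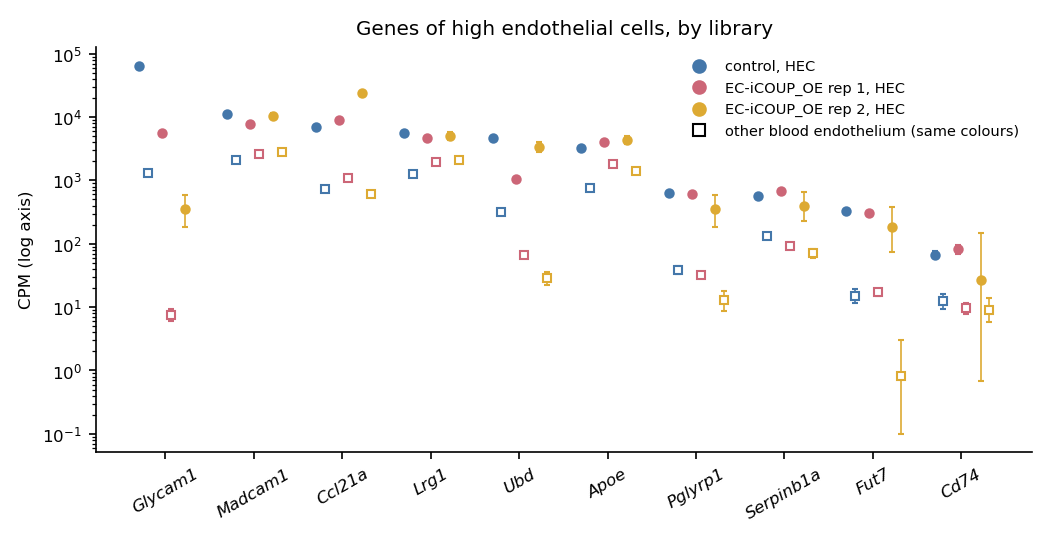
CPM (log axis) of genes of HEC in the 3 libraries, with circles for HEC, squares for other blood endothelium and bars for exact 95% Poisson intervals. HEC lie above other blood endothelium for Fut7, Glycam1, Ubd, Madcam1 and Ccl21a in the control library and replicate 1, whereas Glycam1 falls from 65121 CPM in control HEC to 5526 CPM in replicate 1 and 348 CPM in replicate 2.

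Levels just outside and just inside the threshold of the score are given as a description. In the control library the 38 BEC with 3 score UMIs, just outside the rule, stood at 6332 CPM of Madcam1, 15001 CPM of Glycam1 and 87.3 CPM of Fut7. The 35 HEC with 4 score UMIs, just inside it, stood at 6830, 22609 and 143 CPM of the same genes. The 330 HEC with 10 or more score UMIs reached 11606, 73350 and 358 CPM. In replicate 1 the 51 cells at a score of 3 had 5139 CPM of Madcam1 and 132 CPM of Fut7, and the 40 HEC at a score of 4 had 5674 and 207 CPM. A cell with more UMIs in all can also reach a higher score, and the median depth went from 3179.5 UMIs at a score of 3 to 8058.5 at 10 or more in the control library.

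**Figure D2:**
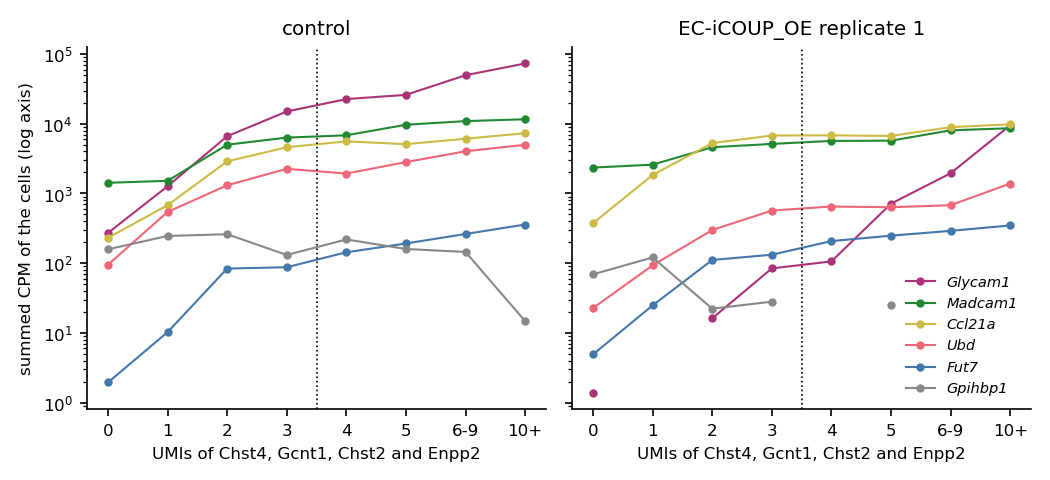
Summed CPM (log axis) of named genes in blood endothelium, by the UMIs of Chst4, Gcnt1, Chst2 and Enpp2 in the cell, for the control library and EC-iCOUP_OE replicate 1. The dotted line marks the threshold of the rule, and Madcam1, Glycam1 and Fut7 increase across it in the control library, whereas Ubd reads 2256 CPM at a score of 3 and 1930 CPM at 4. Ccl21a in replicate 1 reads 6780, 6821 and 6682 CPM at 3, 4 and 5, and Glycam1 in replicate 1 stays near 84.0 CPM at a score of 3 and reaches 9526 CPM at 10 or more.

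A minority of members went against the label. Of control HEC, 74 of 535 (13.8%) had at most 2 Madcam1 UMIs, as did 10 of 299 (3.34%) in replicate 1 and 2 of 8 in replicate 2. The 74 control cells had a median of 3087.5 UMIs and were led by genes of capillary and arterial endothelium. Gpihbp1, the capillary anchor of lipoprotein lipase, stood at 656 CPM in them and 10.6 CPM in the other control HEC, Cxcl12 at 756 against 56.1 CPM, and the arterial connexin Gja4 at 475 against 33.2 CPM. Their Fut7 was 20.1 CPM against 351 CPM. Enpp2, a gene of the rule, stood at 2040 CPM in them, and the counts below were also taken without them. The 10 cells of replicate 1 stood at 1060 CPM of the smooth muscle gene Acta2 against 66.6 CPM in the remaining HEC.

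Promoter sequences are shown for the addressin gene of PP and for the HEC markers that were 2-fold lower in replicate 1, Glycam1 and Ubd, because COUP-TFII and NKX2-3 are both known regulators of endothelial genes in the gut. Each run holds the 250 bases before the transcription start, 5′ to 3′ on the gene's strand, from RefSeq on GRCm38.p6. Madcam1 is at chr10:79664309-79664558 on the plus strand, Glycam1 at chr15:103565082-103565331 on the minus strand and Ubd at chr17:37193642-37193891 on the plus strand. Capitals mark GGTCA, the half-site of nuclear receptors such as COUP-TFII, AAGTG, the core of NKX2 sites, and CACGTG, the E-box, each on either strand.
Madcam1: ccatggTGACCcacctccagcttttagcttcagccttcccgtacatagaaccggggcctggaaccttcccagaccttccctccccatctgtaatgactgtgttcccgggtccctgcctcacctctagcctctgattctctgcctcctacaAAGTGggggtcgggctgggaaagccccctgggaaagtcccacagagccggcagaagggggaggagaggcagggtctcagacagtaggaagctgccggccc
Glycam1: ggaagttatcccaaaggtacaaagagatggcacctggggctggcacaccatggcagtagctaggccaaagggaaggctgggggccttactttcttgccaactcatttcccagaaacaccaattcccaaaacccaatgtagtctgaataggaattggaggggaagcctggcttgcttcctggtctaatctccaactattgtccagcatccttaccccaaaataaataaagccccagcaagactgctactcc
Ubd: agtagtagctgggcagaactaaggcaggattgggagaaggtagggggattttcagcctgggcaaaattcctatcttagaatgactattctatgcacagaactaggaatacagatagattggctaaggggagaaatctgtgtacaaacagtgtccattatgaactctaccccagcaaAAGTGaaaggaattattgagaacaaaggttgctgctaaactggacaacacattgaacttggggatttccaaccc

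The Madcam1 window held GGTCA on the opposite strand, 244 to 240 bases before the start, and AAGTG on its own strand, 100 to 96 bases before it. Ubd held AAGTG 74 to 70 bases before the start, and Glycam1 held none of the 3 motifs in this window. Such short motifs are frequent. Of 32851 promoter windows of this length, 35.2% held GGTCA, 40.7% held AAGTG, 6.02% held CACGTG and 14.9% held both GGTCA and AAGTG. A match is a description of the letters and not a bound site. By the construct positions in the study, its composite element of Madcam1 lies farther from the start than this window reaches. Whether the study counts from the same start was not tested.

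The libraries stood apart in ways that the genotype does not cover. Cell Ranger 3.0.2 is named in the headers of the control library and replicate 2, and 3.1.0 in that of replicate 1. Of the 984 starts of 8 bases among the barcodes of replicate 2, 953 (96.8%) also occurred in the control library, whereas of the 2760 starts in replicate 1 only 350 (12.7%) did. The control library and replicate 2 shared 12 barcodes, 1 of them a HEC in both, and neither shared a barcode with replicate 1. Of HEC with reads of Xist or of Y-linked genes but not of both, 453 of the control library were female and 25 male, 109 and 119 in replicate 1, and 6 and 0 in replicate 2. The genotype of replicate 1 thus cannot be told apart from its barcode set and software version, and its sex mix differed as well.

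Markers of other cell types made up a small part of the UMIs of HEC, and the gate set this in part, since it held Mmrn1, Reln and Prox1 together to at most 1 UMI and kept the fibroblast genes below the endothelial sum. The 6 fibroblast markers summed to 74.0 CPM in control HEC, with Dcn as the most abundant at 33.1 CPM, and to 2.28 CPM in replicate 1, where 4 of them were at 0, and Dcn and Col1a2 passed 2-fold. Summed markers of pericytes and smooth muscle stood at 120 and 195 CPM, with Tagln and Acta2 higher and Rgs5 lower in replicate 1, and those of leukocytes in general at 47.8 and 33.7 CPM, most of it Coro1a. B cell, T cell, plasma cell and myeloid lists each stayed under 8 CPM in both libraries, glial and erythroid lists too. The epithelial list went from 0.802 to 82.4 CPM through Krt19 alone, with Epcam, Krt8, Krt18 and Cdh1 at 0 in replicate 1. Lymphatic markers went from 11.5 to 155 CPM through Lyve1, with Reln and Pdpn at 0 in replicate 1. The part of other cells in the differences below was not tested, except where a count without such cells is given.

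HEC were next set against the other BEC of their own library. Among 6416 genes with at least 50 UMIs in control HEC, 212 (3.3%) were at least 2-fold higher in HEC than in other BEC in both the control library and replicate 1, and 231 (3.6%) were at least 2-fold lower in both. The filter removes genes that are low in control HEC, and with no filter 489 were higher and 942 lower. All 5 HEC markers outside the rule that had enough UMIs were among the higher. Since the filter asks for UMIs in control HEC, a marker low there could not enter, and this count is no check of the label. Glycam1, a secreted mucin that carries L-selectin ligands, showed the largest log2 ratios of these 5, at 5.66 in the control library and 9.50 in replicate 1. Other BEC include cells just below the score. At a score of 3, 38 control cells held 2061 Glycam1 UMIs and 51 replicate 1 cells held 21. Outside the blood endothelium 12.5% of control and 0.352% of replicate 1 cells, thinned to 1000 UMIs, had a Glycam1 UMI. The part of either in the gap between the 2 ratios was not tested. Ubd, a ubiquitin-like protein induced by inflammatory cytokines, had log2 ratios of 3.87 and 3.96, from 4613 against 316 CPM in the control library. Those of Madcam1 were 2.42 and 1.59, since other BEC of the PP held Madcam1 too. B3gnt3, a further enzyme of L-selectin ligands, had too few UMIs for the rule, at 7.48 CPM in control HEC and 9.84 CPM in other BEC.

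The genes with the largest ratio in both libraries, after those of the rule, included several that are not part of lymphocyte homing. Pglyrp1, a peptidoglycan-binding protein of antibacterial defence, stood at 628 CPM in control HEC against 38.5 CPM, and at 602 against 31.7 CPM in replicate 1. Oit1 stood at 220 against 12.2 CPM and at 96.6 against 2.48 CPM. Rassf6, Gm10851, Lbhd2, Nefh, Tcerg1l, Chrnb4, Bhlha15, Reg3g, Ptgds and Serpina1c followed at lower levels, each with log2 ratios of 3.85 or more in both libraries, which for Serpina1c in replicate 1 is a bound against 3 UMIs because other BEC had none. Reg3g and Bhlha15 rested on 60 and 55 UMIs in control HEC and on 3 each in replicate 1.

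The lists by role were read against the 3.3% of all genes that were higher in HEC and the 3.6% that were lower. Of 17 tested enzymes of L-selectin ligand synthesis, 4 were higher (Fut7, Chst1, Fut4 and B4galt6) and 1 was lower (Gcnt2, which makes a branch other than that of Gcnt1), with medians of the log2 ratio of 0.13 and 0.12 in the control library and replicate 1. Chst1, a sulfotransferase, stood at 102 CPM against 31.3 CPM in the control library and 186 against 83.3 CPM in replicate 1. Of 9 chemokines and their scavenging receptors, Ccl21a, Cxcl1, Cxcl2, Cxcl9 and Ackr2 were higher and Cxcl12 was lower, with medians of the log2 ratio of 2.06 and 1.24 in the control library and replicate 1 against −0.27 and −0.07 over all genes tested. Of 12 secreted and defence proteins, Apoe, Serpinb1a, Serpinb9, Cfb and Lrg1 were higher, and Tgm2 and Ctsh were lower. Cd74 and H2-Ab1, parts of the class II presentation machinery, were the only 2 higher of 12 antigen presentation genes, at 67.1 against 12.5 CPM and 22.5 against 8.53 CPM in the control library. Leukocyte markers were higher in HEC too, at 47.8 against 7.22 CPM in the control library and 33.7 against 8.56 CPM in replicate 1, most of it Coro1a, and B cell markers summed to 7.48 against 0.875 CPM in the control library. The part of leukocyte RNA in the class II genes was not tested. Of 48 genes of the secretory pathway only Sdf2l1 passed the 2-fold mark, although their medians were 0.42 and 0.36. Of 20 genes of lymphotoxin and NF-κB signalling Tnfaip3, Ubd and Nfkbie were higher and Tnfaip2 was lower.

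Many arterial and capillary genes were lower in HEC than in other BEC. Of 14 Notch and arterial genes 10 were lower and none was higher, with medians of −2.05 and −1.42. Sox17, an arterial transcription factor, stood at 95.4 CPM in control HEC against 471 CPM, and at 86.1 against 265 CPM in replicate 1. Of 12 capillary genes 8 were lower, among them the fatty acid transporter Cd36 at 37.2 against 469 CPM. Of 33 endothelial transcription factors 7 were lower and none was higher. Klf2, which responds to shear stress, stood at 1329 against 3326 CPM, and Nkx2-3, the homeobox factor of gut endothelium, at 205 against 702 CPM. Of 17 immediate-early genes 10 were lower as well, such as Fos at 1391 against 2914 CPM.

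Against the venule cells, which were BEC chosen by the mirror image of the rule (at least 4 UMIs of Selp, Adgrg6, Cytl1 and Fxyd6 and more of these than of the HEC genes), the HEC genes stood apart as well. The 295 control venule cells held 3745 CPM of Madcam1, 769 CPM of Glycam1 and 17.7 CPM of Fut7. Venule cells thus shared Madcam1 with HEC at a lower level, while their Fut7 was close to the 15.1 CPM of all other BEC. With venule cells as the reference, 229 genes were higher and 222 lower in HEC. None of 14 adhesion receptors, 6 sialic acid genes and 16 cell division genes was 2-fold higher or lower in HEC than in other BEC of both libraries. Of 12 venous genes only Lrg1 was higher, of 8 lysophospholipid genes Sphk1 was higher and Plpp3, Lpar6 and Plpp1 were lower, and of 27 interferon genes Cxcl9 was higher and Ifit1 lower. The von Willebrand factor gene Vwf, at 58.3 CPM in control HEC, stood at 651 CPM in venule cells.

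Nr2f2 was higher in HEC of both EC-iCOUP_OE libraries. It stood at 138 CPM (127 to 151) in control HEC, 1120 CPM (1076 to 1165) in replicate 1 and 856 CPM (586 to 1209) in replicate 2, a log2 ratio of 3.02 (2.88 to 3.16) between replicate 1 and the control library. The other BEC went from 109 to 1787 CPM, with a log2 ratio of 4.03. In the control library Nr2f2 in HEC lay between the 109 CPM of other BEC and the 254 CPM of venule cells. With each cell thinned to 1000 UMIs, 10.8% of control HEC (8.34% to 13.8%, Clopper-Pearson) and 61.5% of replicate 1 HEC (55.8% to 67.1%) had an Nr2f2 UMI. In cells outside the blood endothelium those shares were 5.59% and 67.5%, and 80.2% of such cells in replicate 1 had a UMI of the lymphatic gene Lyve1.

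None of the addressin genes and enzymes of this paragraph passed 2-fold between replicate 1 and the control library. Madcam1 stood at 11232 CPM (11124 to 11340) in control HEC, 7862 CPM (7745 to 7980) in replicate 1 and 10545 CPM (9530 to 11640) in replicate 2, with a log2 ratio of −0.51 (−0.54 to −0.49) in replicate 1 that did not reach 2-fold. In other BEC the summed level of Madcam1 went from 2100 to 2610 CPM, a log2 ratio of 0.31, while the share of those cells with a Madcam1 UMI after thinning to 1000 UMIs went from 25.4% (23.5% to 27.4%) to 72.1% (70.6% to 73.7%), beside 5.56% and 5.89% outside the blood endothelium. Fut7 stood at 325, 307 and 187 CPM, with a log2 ratio of −0.08 (−0.22 to 0.05) whose interval spans no difference. Gcnt1, the branching enzyme, and Chst2 had ratios of 0.06 and −0.01, and as rule genes they are given as values only. St6gal1, a sialyltransferase, had 42 UMIs in control HEC and 33 in replicate 1, or 11.2 and 15.03 CPM, too few for the 2-fold rule. Ccl21a was at 6932, 8936 and 23660 CPM. In replicate 2, 1 of the 8 HEC had no Ccl21a UMI and 2 of them held 324 and 342 of the 884 UMIs.

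Glycam1 and Ubd were lower in HEC of replicate 1. Glycam1 went from 65121 CPM (64862 to 65380) in control HEC to 5526 CPM (5429 to 5626) in replicate 1 and 348 CPM (185 to 595) in replicate 2, a log2 ratio of −3.56 (−3.59 to −3.53). Its transcripts alone made up 6.51% of all UMIs of control HEC and 0.553% of those of replicate 1. Ubd went from 4613 CPM (4544 to 4682) to 1036 CPM (994 to 1079), a log2 ratio of −2.16 (−2.22 to −2.09), and stood at 3399 CPM (2834 to 4044) in replicate 2. The counting intervals of Glycam1 in the 3 libraries did not overlap, while Ubd in replicate 2 lay nearer to the control library than to replicate 1. Both levels of replicate 2 rest on few cells. Of its 8 HEC, 7 had no Glycam1 UMI, and 1 cell held 55 Ubd UMIs against a median of 6.5. The intervals leave out this spread between cells. Glycam1 also differed with sex, at 69797 CPM in the 453 female and 12943 CPM in the 25 male control HEC. Within female HEC its log2 ratio was −2.94 and within male HEC −1.81, and those of Ubd were −2.15 and −1.51. In cells outside the blood endothelium Glycam1 stood at 1079 CPM in the control library and 126 CPM in replicate 1, and the part of free RNA in these values was not tested. Ubd, too, was at least 2-fold lower in replicate 1 both in other BEC and in cells outside the blood endothelium.

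Over the transcriptome, 6625 genes had at least 50 UMIs in HEC of 1 or both libraries, of which 583 (8.8%) were at least 2-fold higher in replicate 1 and 273 (4.12%) at least 2-fold lower. The median log2 ratio was 0.20. This split depended on the scaling. CPM put 68.1% of the called genes on the higher side, and TMM, a scaling of the sums that centres the bulk of the genes on no difference, put 40.9% there, with 313 higher and 452 lower and a shift of the median by −0.28. With Glycam1 left out of the totals 459 genes were higher and 327 lower. Without the members poor in Madcam1 the counts were 655 and 249, and without cells holding markers of other cell types they were 501 and 262. In female HEC alone 462 genes were higher and 327 lower.

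The 12 largest increases and the 12 largest decreases by counting interval were for the most part shared with cells other than HEC. Most of the called genes were not shared at 2-fold with both other BEC and cells outside the blood endothelium. Of the 6625 tested genes, 6273 remained when those shifted alike in all cells were left out. Of the 583 higher genes 173, and of the 273 lower genes 107, were also at least 2-fold changed the same way both in other BEC and in cells outside the blood endothelium. The last are different cells in the 2 libraries, since after thinning 0.033% of them in the control library and 80.2% in replicate 1 had a Lyve1 UMI, 75.8% and 11.2% an Apoe UMI, and 18.7% and 1.495% a Colec12 UMI, so that a shift in their sums cannot be told apart from a change in their makeup. Among the 12 genes with the largest increase by counting interval, 10 were of that kind, namely Krt19, Trim12a, Serpina1e, Ms4a6b, Trim30d, Ftl1-ps1, Hcrtr1, Gstp1, Ccdc85b and Lyve1, and the remaining 2 were Ly6a and Ly6e. Among the 12 with the largest decrease the 10 were Gm11361, Tpm3-rs7, Gm10260, Serpina1b, Wdr89, Rps27rt, Rpl36a-ps1, Serpina1c, Pianp and Glycam1, and the remaining 2 were Cpe and Prrg3. Several are pseudogenes by their names or members of near-identical families, whose reads are hard to assign. Wdr89 stood at 274 CPM in other BEC of the control library, 12.2 CPM in replicate 1 and 519 CPM in replicate 2, so that it was not lower in the EC-iCOUP_OE library that shares barcode starts with the control library. Rps27rt, at 582, 36.2 and 1290 CPM, and B2m, at 5977, 2164 and 6931 CPM, had the same order, whereas Ftl1-ps1, at 30.4, 772 and 856 CPM, was higher in both EC-iCOUP_OE libraries.

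**Figure D3:**
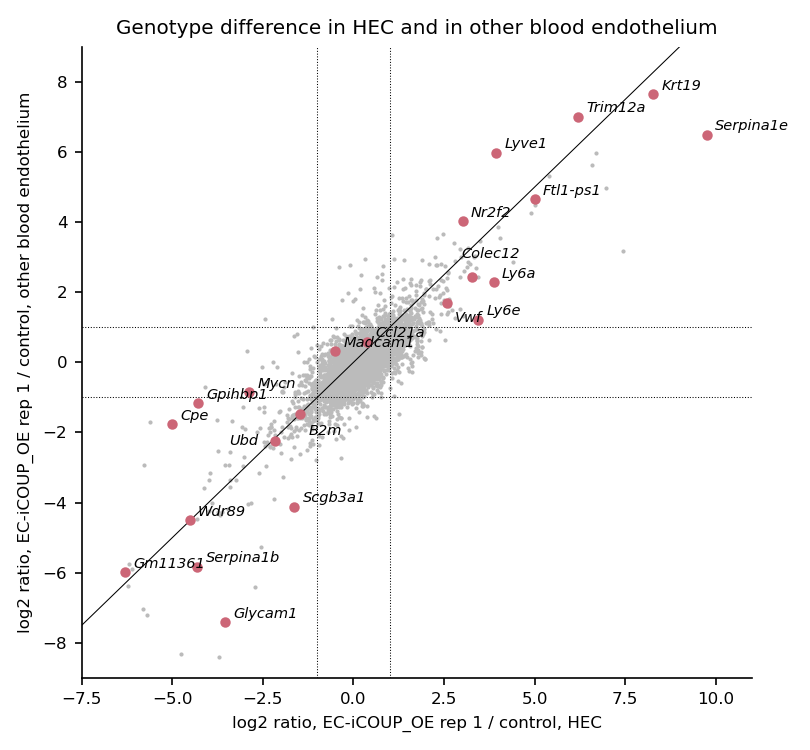
Log2 ratio of EC-iCOUP_OE replicate 1 to the control library in HEC (x axis) and in other blood endothelium (y axis), 1 point per gene with at least 50 UMIs in HEC of 1 or both libraries. Many genes lie along the diagonal, such as Krt19 and Gm11361, while Nr2f2 reads 3.02 in HEC and 4.03 in other blood endothelium and Madcam1 reads −0.51 and 0.31.

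In the Serpina1 family, near-identical copies moved in opposite directions. Serpina1b, a protease inhibitor gene of the α1-antitrypsin cluster, had 13758 UMIs in control HEC and 407 in replicate 1, while its near-identical neighbour Serpina1e had 0 and 1529. Serpina1a to Serpina1e summed to 3819 CPM in control HEC and 892 CPM in replicate 1, a log2 ratio of −2.10 (−2.17 to −2.03). How reads were assigned between the copies was not tested. In other BEC the family stood at 680 and 31.7 CPM.

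Among genes not shifted throughout the library, chosen after their values were seen, Ly6a and Ly6e led the increases. Ly6a, the stem cell antigen Sca-1, stood at 109 CPM (98.5 to 120) in control HEC, 1593 CPM (1540 to 1646) in replicate 1 and 1044 CPM (742 to 1427) in replicate 2, with a log2 ratio of 3.87. Ly6e, a related surface protein, stood at 77.8, 844 and 1579 CPM, with a ratio of 3.44. Both were also higher in other BEC of replicate 1, at log2 ratios of 2.30 and 1.22. Outside the blood endothelium Ly6a was found in 25.97% of control and 9.06% of replicate 1 cells, so that its place among these genes rests on cells that differ between the libraries. The scavenger receptor Colec12 stood at 25.7, 246 and 161 CPM, the complement inhibitor Serping1 at 24.3, 159 and 455 CPM, and Cd300lg, a mucin-like receptor of endothelium, at 20.9, 109 and 187 CPM. All of these were higher in both EC-iCOUP_OE libraries than in control HEC, with intervals that did not overlap. Cd300lg also differed with sex, at 14.0 CPM in female and 80.9 CPM in male control HEC. Its log2 ratio between replicate 1 and the control library was 1.76 within female HEC. Within male HEC it was 0.96 (0.04 to 2.05), short of 2-fold.

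The decreases outside the library-wide shifts were led by Cpe and Prrg3. Cpe, which encodes carboxypeptidase E, a processing enzyme of secreted peptides, had 550 UMIs in control HEC and 10 in replicate 1, or 147 and 4.55 CPM, with a log2 ratio of −5.01. The log2 ratio of Cpe was −6.92 in female HEC and −1.32 (−3.32 to 1.21) in male HEC, where control Cpe was 151 and 24.3 CPM. Prrg3 went from 44.4 to 0.911 CPM. Mycn, a transcription factor of growing cells, went from 63.4 to 8.65 CPM, with a log2 ratio of −2.87. Meox2, a homeobox factor of endothelium, went from 67.9 to 12.8 CPM, while its relative Meox1 stood at 339 and 538 CPM. In replicate 2, where a single UMI is 26.8 CPM, none of Cpe, Prrg3, Mycn and Meox2 had a UMI, and that allows up to 98.7 CPM for each.

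The lists of sugar and adhesion genes were read against the 8.8% of all genes that were higher and the 4.12% that were lower. Of 21 tested enzymes of L-selectin ligand synthesis, 3 were higher in replicate 1 (B3gnt3, B4galt1 and Fut4) and 1 was lower (Slc35b2, a transporter of the sulfate donor), with a median of 0.46 against 0.20 over all genes. With TMM scaling the log2 ratios of B4galt1 and Fut4 were 0.86 and 0.87, short of 2-fold, while that of B3gnt3 was 2.13. In male cells Slc35b2 went the other way, at 1.10. B3gnt3, which extends the sugar chain, stood at 7.48, 39.6 and 161 CPM in the control library, replicate 1 and replicate 2. It was also higher in other BEC and in cells outside the blood endothelium of replicate 1. Of 8 mucin-like scaffolds, Emcn and Cd300lg were higher and Parm1 and Glycam1 lower. In male HEC the log2 ratio of Cd300lg was 0.96, short of 2-fold. Emcn is a gene of the gate and stayed past 2-fold in only 7 of 12 alternatives, and without it 1 of 7 scaffolds was higher. Without the genes of the gate and the rule, the 19 enzymes had a median of 0.57 and the 14 adhesion receptors one of 0.47, with the same counts of calls. Of 17 adhesion receptors, Itga6, Cd9, Mcam and Cd47 were higher and the junctional protein F11r was lower, with a median of 0.56. Cd9 moved the same way in other BEC and in cells outside the blood endothelium. Of the 7 tested genes of the sialic acid list only St6galnac6 was higher. Cmah, which makes a form of sialic acid and was not in that list, had a log2 ratio of 1.26. Icam1, an integrin ligand of lymphocyte arrest, stood at 328 and 379 CPM. Of 10 chemokines and scavenging receptors, Ackr3 and Cxcl16 were higher, and Cxcl1 and Cxcl12 were lower, Cxcl12 also in other BEC and in cells outside the blood endothelium. Ackr1, which carries chemokines across venules, was at 638 and 773 CPM in HEC, although it went from 885 to 379 CPM in other BEC.

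Genes of lymphotoxin signalling and of defence were called in both directions, beside 8.8% of all genes higher and 4.12% lower. Of 21 genes of lymphotoxin and NF-κB signalling, Map3k14, Tnfaip2 and Nfkbie were higher and Birc3 and Ubd lower, with a median of −0.03. Tnfaip2 stayed past 2-fold in only 3 of 12 alternatives, with a lowest log2 ratio of 0.19. Nfkbie did so in 8, with 0.80 under TMM scaling, and Map3k14 in 10, with 0.37 in male cells. Birc3, an inhibitor of cell death induced by NF-κB, stood at 98.4 and 39.2 CPM. Of 13 secreted and defence proteins 5 were higher and 3 lower (Serpinb9, Cfb and C3), and of these 8 Tnfsf10, Bst2, Ctsh, Cfb and C3 moved the same way in other BEC and in cells outside the blood endothelium. The complement factor Cfb went from 167 to 37.8 CPM, but stood at 509 CPM in replicate 2. Other secreted products of HEC differed by less than 2-fold, with Lrg1 at 5678 and 4673 CPM, Apoe at 3287 and 4115 CPM, Serpinb1a at 558 and 693 CPM and Pglyrp1 at 628 and 602 CPM. Of 9 lysophospholipid genes, Spns2, an exporter of sphingosine 1-phosphate, and Plpp1 were higher, and Sphk1, which makes that lipid, was lower, at 26.7 and 10.9 CPM. Plpp1, with a log2 ratio of 1.02, stayed past 2-fold in only 4 of 12 alternatives and stood at 0.33 with HEC chosen at 2000 UMIs. Spns2 stayed past it in 9 and stood at 0.89 with TMM scaling. Sphk1 was also lower in other BEC and in cells outside the blood endothelium.

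Venous, arterial and capillary genes were read against the same shares of all genes, 8.8% higher and 4.12% lower, and against their median of 0.20. Of 14 venous genes 4 were higher (Il1r1, Bgn, Vwf and Nr2f2 itself) and 1 was lower (Cpe), with a median of 0.64 in HEC and of 0.61 in other BEC. Vwf and Nr2f2 were also higher in other BEC and in cells outside the blood endothelium. Bgn stayed past 2-fold in the same direction in only 2 of 12 alternatives and had a log2 ratio of −1.13 with HEC chosen at 2000 UMIs, against 1.02 in all HEC. Vwf, the clotting factor of venous endothelium, stood at 58.3, 349 and 187 CPM in the 3 libraries, a log2 ratio of 2.58 in replicate 1. Of 15 Notch and arterial genes 1 was higher (Dll1) and 3 were lower (Hey1, Unc5b and Jag2), with a median of −0.35. In male cells Dll1 and Jag2 went the other way, at −0.32 and 0.27. The same 15 genes had a median of −1.16 in other BEC. Hey1, a target of Notch signals, went from 22.2 to 5.47 CPM in HEC and from 174 to 34.3 CPM in other BEC. The 74 control HEC poor in Madcam1 held 45 of its 83 UMIs, and among HEC with 3 or more Madcam1 UMIs Hey1 stood at 11.01 and 3.28 CPM. Unc5b marked the same 74 cells, and its log2 ratio was −2.66 without them against −3.45 in all HEC. Of 12 capillary genes Fabp4 and Sgk1 were higher and Cxcl12, Rgcc, Scgb3a1 and Gpihbp1 lower. Sgk1 stayed past 2-fold in only 5 of 12 alternatives and had a log2 ratio of −0.61 in male cells. Gpihbp1, Rgcc and Cxcl12 also marked the control HEC poor in Madcam1. Gpihbp1 stood at 53.5 CPM in control HEC and 2.73 CPM in replicate 1, and among HEC with 3 or more Madcam1 UMIs it stood at 10.6 CPM in the control library and had no UMI in replicate 1. In replicate 2 such HEC held 10 UMIs of Gpihbp1, or 314 CPM (151 to 577). By score, the 2 replicate 2 HEC with 5 score UMIs held 10 Gpihbp1 UMIs, 1 Ccl21a UMI and 0 Glycam1 UMIs. The 4 with 6 to 9 score UMIs held 1 Gpihbp1 UMI. This level thus rests on very few cells, and no difference from the control library is read from it. Among HEC with 3 or more Madcam1 UMIs the log2 ratio of Rgcc in replicate 1 was −0.85, against −1.69 in all HEC, while Cxcl12 at −1.27 and Scgb3a1 at −2.13 stayed past 2-fold. Among 34 endothelial transcription factors only Nr2f2, Erg and Meox2 passed 2-fold, and Nkx2-3 stood at 205, 210 and 187 CPM in the 3 libraries.

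Of 31 interferon-induced genes 9 were higher, beside 8.8% of all genes, among them Isg15 at 114 and 276 CPM, Irf7 at 49.7 and 125 CPM and Ifit3 at 8.29 and 76.5 CPM, and only Gbp4 was lower, at 277 and 97.0 CPM. Of the 9, Trim12a, Bst2 and Ifit3 were also higher in other BEC and in cells outside the blood endothelium. Their median was 0.70 in HEC and 0.27 in other BEC. Of 12 antigen presentation genes, H2-T23, H2-Q4, H2-Q6, H2-Q7 and Tap1 were higher and B2m and H2-Ab1 lower, and all of these but Tap1 moved the same way in other BEC and in cells outside the blood endothelium. B2m, the common chain of class I molecules, stood at 9271, 3344 and 10840 CPM in HEC of the 3 libraries, lower only in replicate 1, as in other BEC. Of 16 cell division genes 5 were higher and none lower, with Stmn1 at 21.1 and 214 CPM, and the median was 0.57 in HEC against 2.24 for the same genes in other BEC. Of 17 immediate-early genes Jund, Hspa1a and Hspa1b were higher and Btg2 and Nr4a1 lower. Of 48 genes of the secretory pathway only Sec13, a coat protein of transport vesicles, passed 2-fold and was lower, with a median of 0.04.

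**Figure D4:**
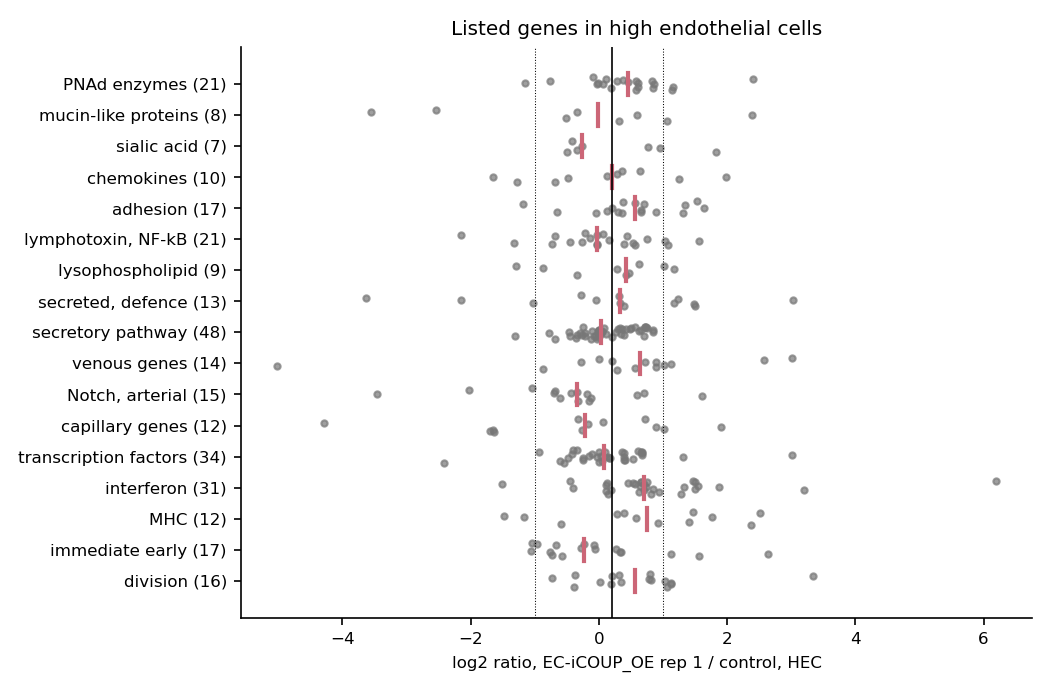
Log2 ratio of EC-iCOUP_OE replicate 1 to the control library in HEC for the tested genes of each list, 1 point per gene, with a bar at the median of the list and the number of tested genes beside its name (PNAd enzymes build L-selectin ligands, the solid line is the median of all genes at 0.20 and dotted lines mark 2-fold). Secretory genes lie near their median of 0.04, interferon genes lean to the right with a median of 0.70, and Glycam1 at −3.56 lies far to the left among the mucin scaffolds.

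The spread between HEC was ranked by the variance over the mean, a measure that grows with the mean itself. In control HEC thinned to 2000 UMIs, the variance of Glycam1 was 118 times its mean, against a median of 1.07 over 1310 genes, and next in order came Ccl21a at 11.3, Malat1 at 10.9, Fabp4 at 8.83, Clu at 7.75 and Madcam1 at 7.504. Raw Glycam1 UMIs per control HEC had a median of 278, 46 of the 535 cells had none and the 95th percentile was 1642. In replicate 1 the median was 0 and the 95th percentile 283.7. Thinned to 1000 UMIs, 83.6% of control HEC (80.1% to 86.6%) and 28.1% of replicate 1 HEC (23.1% to 33.6%) had a Glycam1 UMI, and without thinning 91.4% and 37.5%. The same thinned shares in cells outside the blood endothelium, which should lack it, were 12.5% and 0.352%, at median depths of 2642.5 and 2481 UMIs. Fewer HEC of replicate 1 thus had a Glycam1 UMI, and the richest of them held fewer than the richest control HEC.

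Ubd was found in 82.8% of control HEC and 50.2% of replicate 1 HEC after thinning to 1000 UMIs, against 2.46% and 0.704% outside the blood endothelium. Madcam1 was found in 86.7% and 94.98% of HEC, an order opposite to that of its CPM, from which no difference is read. Per cell it had a median of 76 UMIs in control HEC and 50 in replicate 1. Lyve1, a hyaluronan receptor best known in lymphatics, was found in 0.561% and 12.4% of HEC, in 0.103% and 2.69% of other BEC, and in 0.033% and 80.2% of cells outside the blood endothelium. In HEC of replicate 1 it stood at 151 CPM, whereas Pdpn, a lymphatic gene at 144 CPM in cells outside the blood endothelium of that library, had 0 UMIs.

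**Figure D5:**
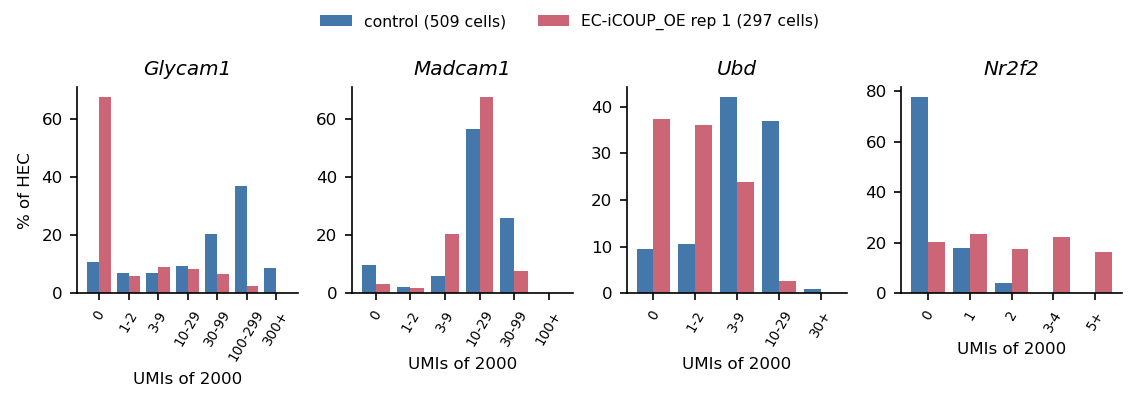
Share of HEC (%) by the number of UMIs of Glycam1, Ubd, Madcam1 and Nr2f2 after each cell was thinned to 2000 UMIs, for the 509 control and 297 EC-iCOUP_OE replicate 1 cells that were deep enough. Most control HEC hold 10 or more Glycam1 UMIs while 200 of 297 replicate 1 HEC hold none, and the order is the opposite for Nr2f2.

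Cells rich in Glycam1 had more Ubd and Pglyrp1 in both libraries. At 2000 UMIs the control library had 54 HEC without Glycam1, 72 with 1 to 9 UMIs, 151 with 10 to 99 and 232 with 100 or more. Across these 4 classes Ubd stood at 798, 2690, 4476 and 6400 CPM, and Fut7 stood at 29.9, 185, 383 and 414 CPM. Pglyrp1 stood at 81.1, 314, 594 and 897 CPM, and Madcam1 at 1849, 9306, 12975 and 13608 CPM. Ly6a went the other way, at 406, 246, 123 and 35.4 CPM, as did Gpihbp1, at 521, 55.9, 22.2 and 2.32 CPM, and Gja4, at 359, 126, 37.9 and 24.9 CPM. The class without Glycam1 resembled the control HEC poor in Madcam1, which stood at 20.1 CPM of Fut7, 656 CPM of Gpihbp1 and 475 CPM of Gja4. The classes were not taken without those members, so their part in these orders was not tested. The median depth increased too, from 3585.5 to 8080.5 UMIs, and cells assigned as male numbered 7, 7, 8 and 1 along the classes. In replicate 1 there were 200, 45, 45 and 7 HEC in the same classes, in which Ubd stood at 698, 1040, 1735 and 4130 CPM and Pglyrp1 at 283, 960, 1136 and 2406 CPM. Madcam1 there went from 7284 to 10786 CPM. Fut7, at 313, 316, 270 and 427 CPM, and Ccl21a, at 9075, 7166, 9293 and 15053 CPM, did not increase from class to class. The richest class of replicate 1 rests on 7 cells.

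Within replicate 1, HEC with more Nr2f2 UMIs held less Glycam1. The 60 HEC with no Nr2f2 UMI of 2000 stood at 12226 CPM of Glycam1, the 122 with 1 or 2 UMIs at 6175 CPM and the 115 with 3 or more at 1260 CPM. Ubd went from 1618 to 1057 and 708 CPM along the same classes, and Pglyrp1 from 1000 to 703 and 275 CPM. Vwf went upward, at 265, 328 and 419 CPM. Fut7 went upward by less, at 260, 302 and 337 CPM, with intervals that overlapped. Madcam1 changed little, at 7648, 8206 and 7550 CPM. In the control library 395 HEC had no Nr2f2 UMI and 113 had 1 or 2, with Glycam1 at 67920 and 59104 CPM, whereas Ubd stood at 4540 and 5000 CPM and Pglyrp1 at 616 and 686 CPM, in the opposite order to replicate 1. The cells of a class come from 1 library, so these are descriptions of that library, and the median depth of the 3 classes of replicate 1 was 6807, 6751 and 6062 UMIs.

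Replicate 2 held 8 HEC, so no 2-fold calls were made in it, and its levels and intervals are given beside those of the other libraries. Of its 37363 UMIs in HEC, 394 were Madcam1, 127 Ubd, 13 Glycam1, 7 Fut7 and 32 Nr2f2. Of the 8 cells 1 had Glycam1 UMIs and 7 had an Nr2f2 UMI. With replicates 1 and 2 summed, 580 genes were higher and 268 lower than in control HEC, close to the counts from replicate 1 alone, which supplied 299 of the 307 cells.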

How the data were processed

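Whole-number UMI counts per gene and cell barcode were used as deposited by the authors, who made them with Cell Ranger against mm10 (3.0.2 in their processing notes and in 2 file headers, 3.1.0 in the header of replicate 1) and kept barcodes called as cells, without scaling. The methods name a Chromium v3 platform together with a v2 kit. Columns of other samples did not occur (0).

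Filtering, gating and summing were done in Python 3.11.15 (pandas 2.3.3, scipy 1.17.1, numpy 2.4.6). Each gene was summed over HEC, other BEC, venule cells and remaining cells of each library and scaled to CPM, in which 1 UMI of HEC weighed 0.267, 0.455 and 26.8 CPM in the control library, replicate 1 and replicate 2. Intervals at 95% were exact (Poisson for levels, conditional on both counts for ratios, Clopper-Pearson for shares) and cover counting error only. A count of 0 was set to 3 UMIs in a ratio, which is then a bound. No test between genotypes was run, with 1 control library and 8 HEC in replicate 2, and a gene was called at 2-fold among genes with at least 50 UMIs, without sex-linked genes. For replicate 2, with 8 HEC, levels and intervals were set beside those of the other libraries without 2-fold calls, and it was summed with replicate 1 as an alternative. No doublet caller was run. Instead, cells with 3 or more UMIs of markers of other cell types, or the deepest 5% of HEC, were left out as alternatives. The size rule and the intervals were also run on simulated Poisson counts. These held no spread between cells or mice, so that run checks the calculation only and not the intervals in real cells. TMM scaling used edgeR 4.0.16 in R 4.3.3. Coordinates and promoters were from RefSeq on GRCm38.p6, the assembly of mm10.

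Genes named were members of the lists (L-selectin ligand enzymes, mucin-like scaffolds, sialic acid, chemokines, adhesion, lymphotoxin and NF-κB, lysophospholipids, secreted and defence, secretory pathway, venous, Notch and arterial, capillary, transcription factors, interferon, antigen presentation, immediate-early, division and markers of cell types), the 15 genes with the largest smaller ratio of HEC to other BEC over both libraries, the 12 most increased and the 12 most decreased genes by the interval end nearest to 0 (no cell above 10% of the UMIs), and the 10 with the largest variance relative to the mean. The members and the lists were chosen with earlier results of these data known.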

Additional observations from a re-analysis of the deposited data

Results flagged for a closer look

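Replicate 2 entered no 2-fold call, and the levels in its 8 HEC were set beside those of control HEC by their intervals. Of 24 named genes that were higher in replicate 1, 18 stood above control HEC with intervals that did not overlap, 6 of them on 2 or 3 UMIs, and none stood below. These genes were picked as higher than in the same control HEC, so the comparisons are not independent. The share to be met without any change was not tested. Over all 6625 genes 5.48% stood above and 1.72% below, over the 583 higher genes 21.1% and 0.172%, and over the 273 lower genes 6.23% and 11.7%. Of 22 named genes that were lower in replicate 1, 3 stood below (Cpe, Serpina1b and Glycam1), 1 stood above (Wdr89) and 13 had no UMI, Cpe among them. Nr2f2 stood at 856.5 CPM, Ly6a at 1044 CPM, Ly6e at 1579 CPM, Ftl1-ps1 at 722.6 CPM, Mustn1 and Ifi27l2a at 562 CPM each, Serping1 at 455 CPM and Serpina1e at 240.9 CPM. Vwf and Cd300lg stood at 187.3 CPM, and Colec12 and Emilin1 at 160.6 CPM. Trim12a, Lyve1 and Islr stood at 80.29 CPM, which is 3 UMIs, and Ms4a6b, Trim30d and Gpc1 at 53.53 CPM, which is 2 UMIs. This replicate shares its barcode starts and software version with the control library. Of other genes lower in replicate 1, Ubd at 3399 CPM (2834 to 4044) in replicate 2 lay below the 4613 CPM of control HEC but above the 1036 CPM of replicate 1, while B2m at 10840 CPM and Cfb at 509 CPM lay above the 9271 and 167 CPM of control HEC. Gpihbp1 stood at 314 CPM (151 to 577) against 10.6 CPM among HEC with 3 or more Madcam1 UMIs. The 2 replicate 2 HEC with 5 score UMIs held 10 Gpihbp1 UMIs, so that no difference is read from this level.

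Of 6625 genes, 3 had ratios of at least 2-fold in opposite directions in HEC and in other BEC, and the difference was not tested. The platelet chemokine Pf4 had a log2 ratio of −2.436 in HEC and 1.23 (−0.94 to 4.43) in other BEC. The latter interval spans no difference, with only 2 UMIs in the control library and 12 in replicate 1. The homeobox gene Irx3 had −1.112 in HEC and 1.02 in other BEC. Cmah, which makes a form of sialic acid, had 1.259 in HEC, where 1 cell held 20.3% of the replicate 1 UMIs, and −1.49 in other BEC.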

How the results depend on the processing

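Counts of genes at least 2-fold higher and lower in replicate 1 HEC (583 and 273) were 313 and 452 with TMM scaling, 111 and 101 of 1488 genes with cells thinned to 1000 UMIs, 226 and 196 of 3869 with HEC chosen at 2000 UMIs, 1311 and 654 at a filter of 10 UMIs, 333 and 178 at 100 UMIs, and 236 and 94 at a mean of 50 CPM. In male cells alone, 25 against 119, they were 415 and 88. The share of higher genes among those called was 68.1% in all HEC, 58.6% in female and 82.5% in male cells, 52.4% after thinning to 1000 UMIs and 53.6% with HEC chosen at 2000 UMIs. Without genes shifted alike in all cells, an alternative chosen after seeing the data like those without Madcam1-poor members and without Glycam1 in the totals, they were 410 and 165. Counts of genes higher and lower in HEC than in other BEC (212 and 231) were 347 and 539 at a filter of 10 UMIs, 160 and 137 at 100 UMIs, 489 and 942 with no filter, and 321 and 696 in the control library alone. With TMM 274 and 161 genes were called there, 63% of them higher against 47.9% with CPM. The other alternatives left each count within 1.5 times its value.

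Of the 96 named genes past 2-fold, 1137 of 1151 values under the alternatives kept their direction and 1040 stayed past 2-fold. With cells thinned to 1000 UMIs the log2 ratio of Bgn was −0.035, of H2-Ab1 0.35 and of C3 0.42, and with HEC chosen at 2000 UMIs that of Bgn was −1.13. In male cells the log2 ratio was 1.10 for Slc35b2, 0.19 for Cxcl12, −0.16 for Bgn and Gpc1, −0.99 for Cmah, 0.27 for Jag2, −0.32 for Dll1, −0.61 for Sgk1, −0.49 for Hcrtr1 and −0.093 for Gstp1. The cause was not tested. No 2-fold calls were made for replicate 2 against the control library, since replicate 2 holds fewer than 10 HEC, and only levels and intervals were compared. No paired analysis was made, because the sample titles name no pairs of libraries. Depth limits every statement on genes under 50 UMIs, Chst4 and St6gal1 among them.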
